A study of Mus musculus with 5 samples.

Results

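The D cyclins and the genes that control the G1 phase of the cell cycle were followed in mouse embryonic neural tubes with and without the erythropoietin receptor. The 10 genes were taken by symbol: the cyclins Ccnd1, Ccnd2 and Ccnd3, their kinases Cdk4 and Cdk6, the kinase inhibitors Cdkn1b (p27) and Cdkn2c (p18), and the pocket proteins Rb1, Rbl1 (p107) and Rbl2 (p130). All 10 were found among the 23284 gene symbols counted, and all 10 were among the 12703 symbols with enough reads to be tested.

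Neural tubes were dissected from embryos of crosses between EpoR+/- mice, and polyA RNA was sequenced from 2 EpoR -/- samples (EpoR-null), 2 EpoR +/+ samples (wild type) and 1 EpoR +/- sample (heterozygote). Neither the labels nor the methods say whether a sample was 1 embryo or a pool, or whether samples of a group came from separate litters, so that p-values measure the spread between these samples only. The age is E8.5 in the sample labels and slightly later in the paper's account. The wild type and heterozygous littermates together served as the 3 controls. The deletion was constitutive, so that every tissue of an EpoR-null embryo carried it, and each library held all cell types left in the dissected tubes.

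D-type cyclins couple mitogen signals to the cell cycle. They bind CDK4 and CDK6, and these kinases begin the phosphorylation of RB and its relatives, which releases E2F factors to switch on the genes of S phase. Inhibitors of the INK4 class, such as p18, bind CDK4 and CDK6 directly, while p27 inhibits CDK2 complexes and is also bound by cyclin D complexes. In the neural tube, dividing progenitors line the lumen, and cells that leave the cycle in G1 become neurons.

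Reads counted on genes ranged from 19316126 to 41169218 per sample, so that 3 reads of a gene corresponded to between 0.0715 and 0.152 CPM (read counts brought to a common library total after scaling between samples). Epor itself had 57 and 68 reads in the wild type samples and 11 in the library labelled heterozygote. EpoR-null replicates 1 and 2 had 7 and 19 reads. The EpoR-null values (0.354 and 0.669 CPM) lay on either side of the library labelled heterozygote (0.476 CPM). The CPM of Epor alone therefore did not separate that library from the EpoR-null samples. Epor is also on the list of erythroid markers below. Its log2 fold change of EpoR-null against the 3 controls was -1.51 (standard error 0.76, FDR 0.280 by the exact test of edgeR). Which part of the gene is deleted could not be read from counts per gene. The progenitor markers Sox2 (286 CPM in controls, 243 CPM in EpoR-null) and Nes (651 and 573 CPM) were abundant. Nes was at 777 and 368 CPM in EpoR-null replicates 1 and 2, on opposite sides of the controls. Of the 11 progenitor markers, 7 had a negative log2 fold change and the rest a positive one. The 5 cardiac markers summed to at most 2.17 CPM in any sample. Blood and vessel markers varied by sample: the library labelled heterozygote had 44.7 CPM summed over 9 erythroid markers against 605 to 1694 CPM in the other samples, and 13.1 CPM over 8 endothelial markers against 149 to 317 CPM. The embryonic globin Hbb-y alone had 365 reads in that library and 8860 to 15861 in the others, while Hba-a1, an adult globin on the same list, had 0 in every sample. Set beside Hbb-y, that library had 11 reads of Epor per 365. The wild type samples had 57 per 10281 and 68 per 8860, and the EpoR-null samples 7 per 15861 and 19 per 11011. By this ratio Epor was highest in the library labelled heterozygote and lowest in EpoR-null. The place of the library labelled heterozygote was largely set by its few reads of Hbb-y, so this ratio cannot decide its genotype. The genotype labels were not tested. The 9 paraxial mesoderm markers summed to 9.94 CPM in the library labelled heterozygote, 45.0 and 41.9 CPM in the wild type samples, and 86.8 and 31.0 CPM in EpoR-null replicates 1 and 2. None of the erythroid, endothelial, paraxial mesoderm, neural crest or neuron markers tested passed the test between groups, and 1 of 11 progenitor markers did, Msi1, which was lower (log2 fold change -0.51, FDR 0.00712). Their part in the differences below was not tested.

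Across all genes, the difference between groups followed transcript length. The shortest 10% of the tested genes (median length 1101 bases) had a median log2 fold change of 0.44 in EpoR-null against controls, and the longest 10% (median 8438 bases) had -0.46. Relative to the mean of the controls, the gap between these classes was -0.57 on the log2 scale in EpoR-null replicate 1 and -1.24 in EpoR-null replicate 2, against -0.09 to 0.07 in the controls. It was present in both EpoR-null samples and larger in replicate 2. Length and genotype are therefore tied in these libraries. The longest annotated transcripts of Cdkn1b, Cdkn2c, Rb1, Rbl1 and Rbl2 are 4552, 2471, 4656, 4862 and 4925 bases long. The lengths of the other members are given below. What produced this trend was not tested.

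Of the 10 members, 1 passed the exact test of edgeR (FDR under 0.05) and was lower, Ccnd2, and 0 were higher. Its p was 0.00103, so with p under 0.001 also required, 0 members and 4.77% of all tested genes were called. Over all tested genes, 5.49% were called lower and 1.81% higher by the same rule, 7.31% in all. Both EpoR-null samples lay outside the range of the controls for 5 members, below it for 3 (Ccnd1, Ccnd2 and Cdk6) and above it for 2 (Cdk4 and Cdkn2c). This share was close to that of all tested genes, of which 43.3% did not overlap between groups, 22.1% with EpoR-null below and 21.2% above. The members' median log2 fold change was -0.28, against 0.06 for all tested genes. Their median transcript length was 4604 bases, against 3492 bases for all tested genes. The part of the length trend in the members' median was not tested. That median rested on 1 sample: it was -0.02 without EpoR-null replicate 2 and -0.49 without EpoR-null replicate 1. The quasi-likelihood F-test, also from edgeR but carrying the uncertainty of each gene's dispersion, called 0 of the 12703 genes (0%), with 3051 genes at an unadjusted p under 0.05 (24% of those tested) and a lowest FDR of 0.059.

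**Figure D1:**
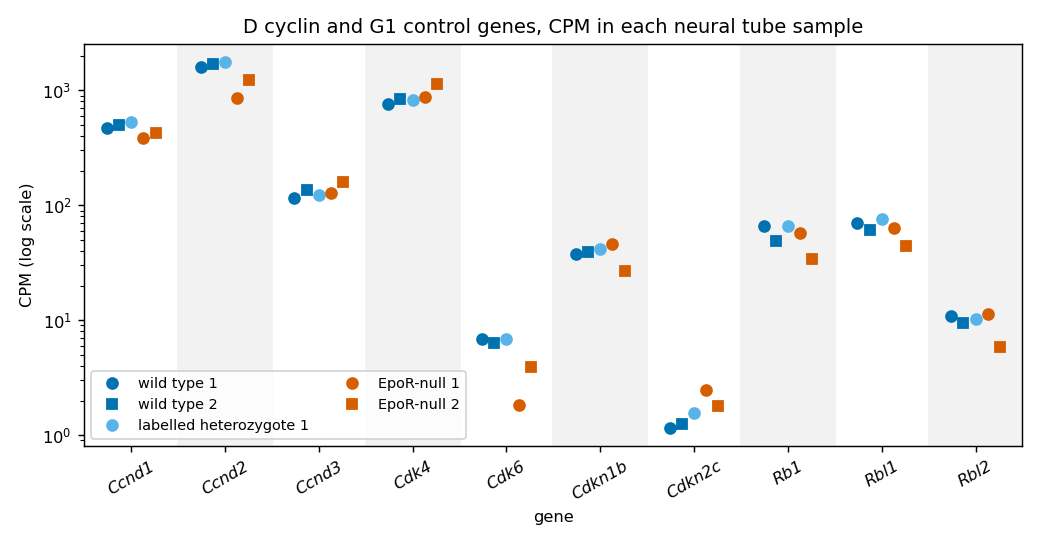
CPM of each member (horizontal axis) in each of the 5 samples on a log scale, with symbols for genotype and replicate number. Both EpoR-null points sit below all control points for Ccnd1, Ccnd2 and Cdk6 and above them for Cdk4 and Cdkn2c, while for Cdkn1b, Rb1, Rbl1 and Rbl2 EpoR-null replicate 2 lies below the controls and replicate 1 does not.

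Ccnd2, which encodes cyclin D2, was the most abundant D cyclin transcript and the member with the firmest difference. It had 1595 and 1679 CPM in wild type replicates 1 and 2, and 1755 CPM in the library labelled heterozygote. EpoR-null replicates 1 and 2 were at 864 and 1241 CPM. The controls were within a narrow band, and both EpoR-null samples fell below it by unequal amounts. Within a single sample these values rest on 17108 to 70479 reads, so that counting error is small beside the gap between the EpoR-null samples. By the exact test Ccnd2 was lower, at -0.67 on the log2 scale (standard error 0.20, FDR 0.0214), or 0.628 of the control level. In bulk tissue, fewer cells expressing the gene and less RNA per cell cannot be told apart.

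The call on Ccnd2 rested on each of the controls. Without wild type replicate 1, wild type replicate 2 or the library labelled heterozygote, the exact test gave an FDR of 0.217, 0.170 or 0.168, with log2 fold changes of -0.71, -0.67 and -0.64. In the same fits the genes called over the whole table fell from 928 to 115, 313 and 253, so the loss was not particular to Ccnd2. Under the quasi-likelihood F-test its FDR was 0.107. With EpoR-null replicate 1 left out the log2 fold change was -0.43, and with EpoR-null replicate 2 left out it was -0.96.

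Ccnd2 has a long transcript (6330 bases), in a length class (each class holds 10% of the tested genes) whose median log2 fold change was -0.28. Its own value stood -0.39 from that median. With offsets that removed each sample's trend on transcript length, its log2 fold change was -0.33 and no longer passed (likelihood-ratio test of edgeR, FDR 0.998, against FDR 0.0200 in the same test without offsets). On GRCm38 the gene spans chr6:127125162-127152193 (minus strand), which overlaps that of 9330179D12Rik, with which reads could be shared or set aside as ambiguous.

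Ccnd1, which encodes cyclin D1, the D cyclin most often tied to growth factor and Wnt signals, had 469 and 498 CPM in wild type replicates 1 and 2 and 527 CPM in the library labelled heterozygote. The EpoR-null samples had 383 and 426 CPM. Both were below every control, and the distance from the lowest control was small. The log2 fold change was -0.30 (standard error 0.15, FDR 0.227), which did not pass. Its transcript (3740 bases) is of middle length, in a length class with a median of -0.01, and with length offsets its log2 fold change was -0.31, close to the value without them.

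Ccnd3, which encodes cyclin D3, gave no sign of the same difference. It had 116 and 136 CPM in the wild type samples, 124 CPM in the library labelled heterozygote, and 128 and 158 CPM in the EpoR-null samples. The groups overlapped, and the log2 fold change of 0.19 (standard error 0.16, FDR 0.557) was not distinguishable from the spread between samples. Its 95% interval ran from -0.13 to 0.51. The span of Ccnd3 overlaps that of Bysl.

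The make-up of the D cyclin pool can be read within each sample, without any scaling between samples. Ccnd2 supplied 73.2% and 72.6% of the D cyclin reads in the wild type samples and 73.0% in the library labelled heterozygote, against 62.8% and 68.0% in EpoR-null replicates 1 and 2. Ccnd1 supplied 21.5% to 21.9% in the controls against 27.8% and 23.3%. Ccnd3 supplied 5.13% to 5.90% against 9.34% and 8.66%. In the EpoR-null samples the share of Ccnd2 was thus below that of every control, and the shares of Ccnd1 and Ccnd3 were above. Shares within a sample are bound to each other, so a lower share of Ccnd2 raises that of the other genes together. In CPM, Ccnd1 was below every control in both EpoR-null samples, and Ccnd3 overlapped between groups. The mean share of Ccnd2 was 72.9% ± 0.299 (SD, n = 3) in controls and 65.4% ± 3.66 (SD, n = 2) in EpoR-null, a difference of -7.47 percentage points. Per kilobase of transcript the shares were 61.5% ± 0.353 and 53.0% ± 4.05. Since a ratio between transcripts of 6330, 3740 and 3858 bases also carries the length trend, the part of that trend in these shares was not tested.

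**Figure D2:**
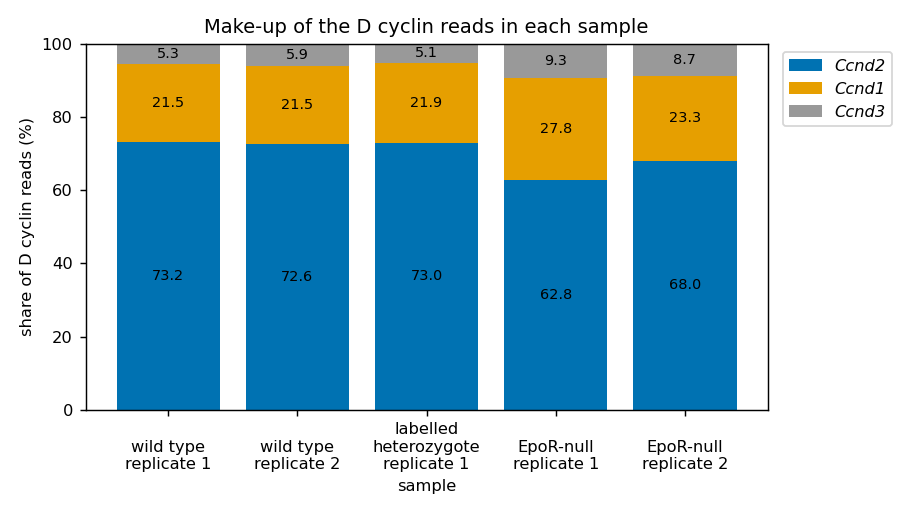
Share of the D cyclin reads (percent, vertical axis) from Ccnd2, Ccnd1 and Ccnd3 in each sample (horizontal axis), with the value written in each segment. The 3 controls are nearly identical, at 72.6% to 73.2% Ccnd2, and the EpoR-null samples have 62.8% and 68.0%.

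Summed over the 3 genes, D cyclin transcripts came to 2180 and 2314 CPM in the wild type samples and 2406 CPM in the library labelled heterozygote, against 1375 and 1824 CPM in the EpoR-null samples. The sum of Ccnd1 and Ccnd3 alone was 585 to 651 CPM in controls and 511 and 584 CPM in EpoR-null. Most of the gap in the sum was that of Ccnd2, and the higher mean of Ccnd3 did not make up for it.

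The kinase partners of the D cyclins differed from controls with opposite signs, and neither passed the test. Cdk4 had 760, 840 and 820 CPM in wild type replicates 1 and 2 and the library labelled heterozygote, and EpoR-null replicates 1 and 2 had 881 and 1129 CPM. Both EpoR-null samples were above every control, EpoR-null replicate 1 only narrowly. The log2 fold change was 0.32 (standard error 0.17, FDR 0.279) and did not pass. Without EpoR-null replicate 1 it was 0.49. Cdk4 has a short transcript (2053 bases) in a length class with a median log2 fold change of 0.30, and with length offsets its value was 0.08. Its span overlaps that of Tspan31.

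Cdk6, the close relative of CDK4, was scarce in these tubes. It had 6.90 and 6.29 CPM in the wild type samples (167 and 264 reads), and 6.87 CPM in the library labelled heterozygote (159 reads). The EpoR-null samples had 1.82 CPM (replicate 1, 36 reads) and 3.91 CPM (replicate 2, 111 reads). Both EpoR-null samples were far below the controls, which varied little. Its log2 fold change of -1.21 (standard error 0.43, FDR 0.0769) was the largest of the 10 in size and missed the threshold. Without EpoR-null replicate 2 it was -1.88. The gene passed with DESeq2 (-1.22, FDR 0.0285) and with library size as the only scaling (-1.28, FDR 0.0448). Cdk6 has the longest transcript of the members (11525 bases), and with length offsets its log2 fold change was -0.50 (FDR 0.998). Cdk6 reads were 0.744% to 0.8997% of the reads of both kinases in the controls and 0.206% and 0.345% in the EpoR-null samples. With Cdk6 below and Cdk4 above every control, this share could not overlap between the groups and is given for its size only. The transcripts of Cdk6 and Cdk4 are the longest and the shortest of the members. The part of the length trend in this share was not tested.

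In both EpoR-null samples Cdk4 was above every control and Ccnd2 below, so their ratio could not overlap between the groups. It is given for its size only. For each read of Ccnd2 there were 0.467 to 0.5 reads of Cdk4 in the controls, and 1.02 and 0.910 in the EpoR-null samples. These genes stand near opposite ends of the length range, and the part of the length trend in this ratio was not tested.

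Promoter windows are shown for both kinases, whose levels are described above, and for Rbl1, the member whose window held an E2F site. They run from 250 bases before to 50 bases after the RefSeq start site on GRCm38.p6, 5′ to 3′. Of the 10 members, 7 had a window in the table (not Ccnd1, Ccnd2 or Rb1). Capitals mark the E-box CACGTG, the site bound by MYC and its relatives, in Cdk4 and Cdk6, and an E2F site in Rbl1.
Cdk4, chr10:127063285-127063584, plus strand: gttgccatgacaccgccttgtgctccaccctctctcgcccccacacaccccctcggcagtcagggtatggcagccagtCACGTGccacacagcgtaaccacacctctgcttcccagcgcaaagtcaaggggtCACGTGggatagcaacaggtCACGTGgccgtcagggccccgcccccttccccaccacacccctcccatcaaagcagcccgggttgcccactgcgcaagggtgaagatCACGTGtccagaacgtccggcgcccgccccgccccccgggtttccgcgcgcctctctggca
Cdk6, chr5:3343643-3343942, plus strand: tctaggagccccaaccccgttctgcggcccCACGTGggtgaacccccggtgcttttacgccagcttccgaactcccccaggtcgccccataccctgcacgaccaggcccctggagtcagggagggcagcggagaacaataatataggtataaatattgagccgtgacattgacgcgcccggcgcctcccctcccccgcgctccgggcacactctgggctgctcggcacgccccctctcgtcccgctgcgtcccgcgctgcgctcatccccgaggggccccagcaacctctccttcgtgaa
Rbl1, chr2:157204485-157204784, minus strand: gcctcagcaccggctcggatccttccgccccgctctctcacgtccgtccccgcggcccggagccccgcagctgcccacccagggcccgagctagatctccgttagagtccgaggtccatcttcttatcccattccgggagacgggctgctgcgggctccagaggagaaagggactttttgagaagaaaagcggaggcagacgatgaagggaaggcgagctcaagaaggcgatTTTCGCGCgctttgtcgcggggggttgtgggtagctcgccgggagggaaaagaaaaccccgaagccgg

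The Cdk4 window held 4 copies of CACGTG, which reads the same on both strands, at positions -172, -118, -98 and -11 from the start site. At least 1 copy was present in 7.15% of the 32851 promoter windows of the same length, and 4 or more copies in 8 windows (0.0244%). Cdk6 held 1 copy, at -220, and 1 of the windows of Cdkn2c held 1 copy, at 35 bases after the start. The E2F site was searched as TTTCCCGC, TTTCGCGC, TTTGCCGC or TTTGGCGC on both strands. It was found among the members in the window of Rbl1 alone, as TTTCGCGC at -18, and in 2.26% of all windows. The site of activated STAT factors, TTCNNNGAA, which reads the same on both strands and was found in 8.30% of all windows, had 0 matches in the members' windows. The motifs do not overlap each other in these windows. The E-box was chosen after the sequences had been seen, and a match is a run of letters, not a measured binding site. Myc and Mycn, which encode factors that bind E-boxes, overlapped between groups, with log2 fold changes of 0.10 (95% interval -0.92 to 1.11) and 0.04 (-0.41 to 0.50). These were means of opposite deviations. Myc had 34.6 to 57.7 CPM in the controls, and 22.3 and 72.3 CPM in EpoR-null replicates 1 and 2. Mycn had 142 to 159.7 CPM in the controls, and 118.9 and 190.5 CPM in EpoR-null replicates 1 and 2.

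The inhibitor p27, encoded by Cdkn1b, separated the EpoR-null samples from each other rather than from the controls. Cdkn1b had 37.6, 38.9 and 41.6 CPM in wild type replicates 1 and 2 and the library labelled heterozygote, 45.8 CPM in EpoR-null replicate 1 and 26.8 CPM in EpoR-null replicate 2. EpoR-null replicate 1 was above all controls and replicate 2 below them. The log2 fold change was -0.12 (standard error 0.27, FDR 0.866). Its sign depended on the sample kept: -0.56 without EpoR-null replicate 1 and 0.22 without EpoR-null replicate 2. D cyclin reads per read of Cdkn1b were 57.8 to 59.5 in the controls, and 30.05 and 68.2 in EpoR-null replicates 1 and 2.

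The neuron markers split the same samples. Summed over 13 genes, among them Tubb3, Dcx and Stmn2, they came to 542 to 832 CPM in the controls, 1413 CPM in EpoR-null replicate 1 and 403 CPM in EpoR-null replicate 2. Tubb3 alone made up 454 CPM of the sum in EpoR-null replicate 1. In that sample Neurog2 (52.1 CPM), Neurod4 (73.0 CPM) and Dll1 (133 CPM) were within the controls, and the other neuron markers were above them. Of these 13 genes, 0 passed the test between groups. Cdkn1c, which encodes the related inhibitor p57 that is switched on as neural progenitors leave the cycle, had 93.2 to 105 CPM in the controls, 163 CPM in EpoR-null replicate 1 and 98.4 CPM in EpoR-null replicate 2. Whether the share of newborn neurons had a part in the level of Cdkn1b was not tested.

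Cdkn2c, the INK4 inhibitor p18, was near the limit of what the depth could resolve. It had 28, 52 and 36 reads in wild type replicates 1 and 2 and the library labelled heterozygote (1.16, 1.24 and 1.56 CPM), while the EpoR-null samples had 49 and 51 reads (2.47 and 1.80 CPM). Both EpoR-null samples were above all controls, at levels where few reads decide the value. The log2 fold change was 0.69 (standard error 0.41, FDR 0.349), with a 95% interval from -0.11 to 1.49.

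The 3 pocket proteins, which hold E2F factors inactive until they are phosphorylated, shared 1 pattern. Rb1 had 65.5 and 48.9 CPM in the wild type samples, 65.7 CPM in the library labelled heterozygote, 57.0 CPM in EpoR-null replicate 1 and 34.1 CPM in EpoR-null replicate 2. Rbl1, itself an E2F target, had 70.2, 61.0 and 75.3 CPM in the controls in that order, and 62.9 and 43.8 CPM in EpoR-null replicates 1 and 2. Rbl2, the pocket protein of resting cells, had 10.9, 9.39 and 10.3 CPM in the controls, and 11.2 and 5.81 CPM in EpoR-null. For each of the 3 genes EpoR-null replicate 2 was the lowest sample, and EpoR-null replicate 1 was within the controls for Rb1 and Rbl1 and above them for Rbl2. All 3 are in 1 length class, with a median log2 fold change of -0.17. The gap between the longest and shortest genes was also larger in EpoR-null replicate 2 (-1.24) than in replicate 1 (-0.57). The part of the length trend in this pattern was not tested.

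None of the 3 passed the test. Log2 fold changes were -0.40 for Rb1 (standard error 0.28, FDR 0.469), -0.37 for Rbl1 (standard error 0.22, FDR 0.357) and -0.26 for Rbl2 (standard error 0.38, FDR 0.765). These differences came mostly from EpoR-null replicate 2. When it alone stood for EpoR-null, Rb1 was at -0.81, Rbl1 at -0.65 and Rbl2 at -0.81. When replicate 1 alone did, they were at -0.07, -0.13 and 0.14. Such fits have 1 EpoR-null sample, so only the size of the difference is given. As a share of the reads of the 3 genes, Rb1 was at 40.96% to 44.7% in the controls and 43.5% and 40.7% in EpoR-null replicates 1 and 2. Rbl1 was at 47.9% to 51.2% against 48.0% and 52.4%, and Rbl2 at 6.83% to 7.87% against 8.55% and 6.94%. For each gene 1 EpoR-null sample was outside the range of the controls and the other within it. Rb1 overlaps Lpar6, Mir687 and Rcbtb2 by span, and Rbl2 overlaps Aktip.

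**Figure D3:**
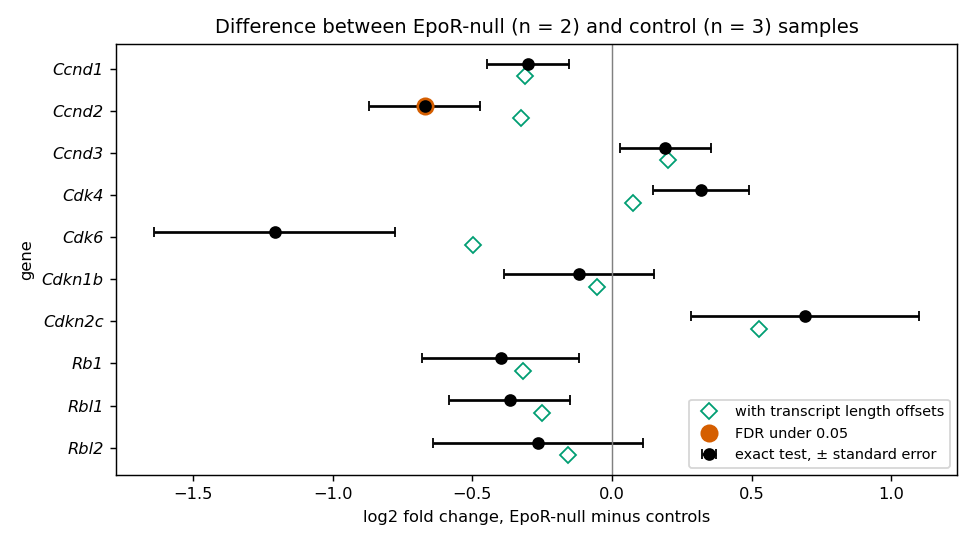
Log2 fold change (horizontal axis) of EpoR-null (n = 2) against control samples (n = 3) for each member (vertical axis), with filled circles and standard errors from the exact test of edgeR and open diamonds from the fit with transcript length offsets. The orange point, Ccnd2 at -0.67, is the call at FDR under 0.05; with offsets it is at -0.33, Cdk6 moves from -1.21 to -0.50 and Cdk4 from 0.32 to 0.08, while Ccnd1 stays near -0.30.

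**Figure D4:**
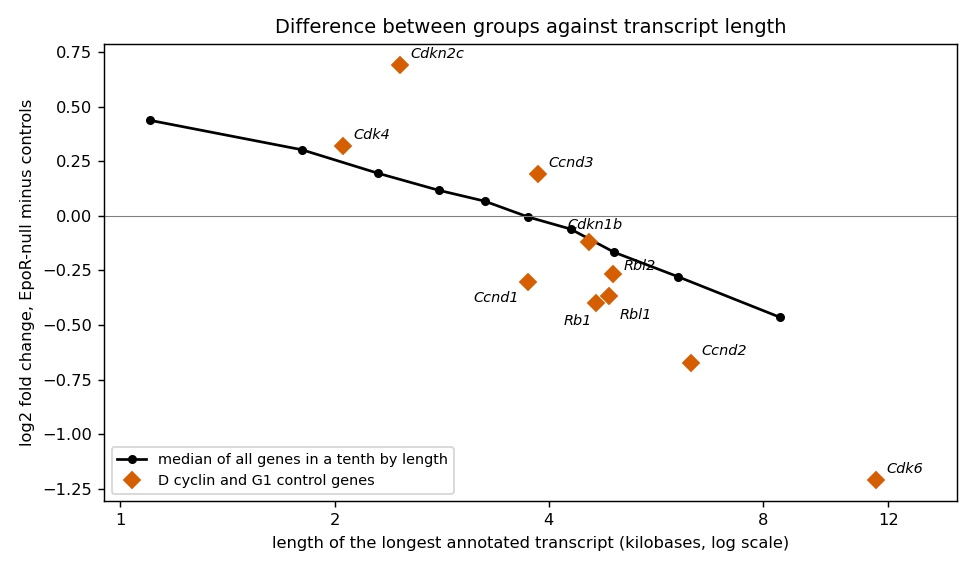
Log2 fold change of EpoR-null against controls (vertical axis) plotted against transcript length in kilobases (log scale) for the members, with the median of all tested genes in each of 10 length classes as a line. The line falls from 0.44 to -0.46, and Cdk4 lies on it while Ccnd2, Ccnd1 and Cdk6 lie below it and Cdkn2c and Ccnd3 above it.

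Set against the median of their length classes, the members ordered differently. Cdk6 was lowest, at -0.75 on the log2 scale from the median of its length class, then Ccnd2 at -0.39, Ccnd1 at -0.30, Rb1 at -0.23 and Rbl1 at -0.20. At 11525 bases Cdk6 is longer than most of its class (median 8438 bases), so its distance from genes of its own length may be smaller. Rbl2 (-0.10), Cdkn1b (-0.06) and Cdk4 (0.02) were close to theirs, and Ccnd3 (0.20) and Cdkn2c (0.50) were above. In the fits with offsets 0 members passed, by the likelihood-ratio test or the quasi-likelihood F-test.

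The other members lie on GRCm38 at chr7:144929931-144939925 (Ccnd1, minus strand), chr17:47505051-47599691 (Ccnd3, plus), chr10:127063534-127067920 (Cdk4, plus) and chr5:3341485-3531008 (Cdk6, plus). Cdkn1b spans chr6:134920401-134925513 (plus), Cdkn2c chr4:109660876-109667189 (minus), Rb1 chr14:73183673-73325822 (minus), Rbl1 chr2:157145893-157204534 (minus) and Rbl2 chr8:91070057-91123844 (plus). The strand setting of the counting is not given in the sources used here, so reads of the overlapping genes named above could not be told apart by strand.

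Levels of different genes were compared per kilobase of the longest annotated transcript. In the controls Cdk4 was highest (393 ± 20.1 CPM per kilobase, SD, n = 3), followed by Ccnd2 (265 ± 12.7), Ccnd1 (133 ± 7.85) and Ccnd3 (32.5 ± 2.64). Rbl1 (14.2 ± 1.48), Rb1 (12.9 ± 2.08) and Cdkn1b (8.65 ± 0.457) came next, then Rbl2 (2.07 ± 0.152), Cdk6 (0.580 ± 0.0300) and Cdkn2c (0.533 ± 0.0854). Rbl1 and Rb1 did not differ beyond their spread, nor did Cdk6 and Cdkn2c. In the EpoR-null samples Cdk4 was at 490 ± 85.3 and Ccnd2 at 166 ± 42.1 CPM per kilobase (SD, n = 2). The order depends on the length used. Per kilobase of coding sequence, in the controls, Ccnd2 (1933 CPM) was above Cdk4 (887), Cdkn1b (66.6) was above Rb1 (21.7) and Rbl1 (21.6), and Cdk6 (6.84) was above Rbl2 (2.99).

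The genes around the members were read from 8 further lists. Beside the D cyclin partners stand the other CDK inhibitors, of which 4 of 6 were tested, 0 were called and the median log2 fold change was 0.58. That median too depended on a single sample, at 0.08 without EpoR-null replicate 1 and 0.85 without EpoR-null replicate 2. The tested genes of this list had a median transcript length of 1926.5 bases. In the length class with a median of 1800 bases, the median log2 fold change was 0.30. The part of the length trend in the list's median was not tested. Cdkn1c, the most abundant, was at 0.41 (FDR 0.338). Cdkn2a and Cdkn2b were at or under 0.0528 CPM in the mean of either group. Of 8 tested genes of the cyclin E, cyclin A and CDK2 module, which completes the phosphorylation of RB and drives S phase, 0 were called. Ccna2, the most abundant of them, had 278 to 287 CPM in the controls against 264 and 277 CPM, a log2 fold change of -0.06 (FDR 0.854).

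Of the 10 E2F and DP factors, 1 was called, E2f7, an E2F that represses. It had 78.5, 84.0 and 83.0 CPM in the controls, in the order used above, and 60.6 and 63.1 CPM in EpoR-null, a log2 fold change of -0.40 (FDR 0.0410). Both EpoR-null samples were alike and below the controls. Of 19 E2F targets of S phase entry, 1 was called, and the list's median was 0.02, but the EpoR-null samples lay on opposite sides of the controls. Summed over the list, the controls had 6605 to 7148 CPM, EpoR-null replicate 1 had 5962 CPM and EpoR-null replicate 2 had 8032 CPM. With EpoR-null replicate 1 left out the median was 0.19, and with EpoR-null replicate 2 left out it was -0.26. The called gene was Pola1, the catalytic subunit of DNA polymerase alpha, at 117 to 132 CPM in controls against 91.2 and 83.1 CPM (log2 fold change -0.52, FDR 0.00829). The genes Mcm2 to Mcm7, which encode the replicative helicase, gave 0 calls. All of these but Mcm4 split the same way. For Mcm4 (478 to 489 CPM in the controls) EpoR-null replicate 1 was below the controls (360.5 CPM) and replicate 2 within them (486.5 CPM). Mcm10, also on the list, was placed like Mcm4. Mcm6 had 590 to 625 CPM in the controls, 520 CPM in EpoR-null replicate 1 and 688 CPM in EpoR-null replicate 2, and Mcm5 had 541 to 602 CPM against 478 and 758 CPM. The log2 fold change of Mcm6 (-0.01, FDR 0.995) was therefore the mean of opposite deviations.

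Of the 8 MuvB and B-Myb genes, 0 were called. The MuvB core joins p107 or p130 with E2F and DP factors to silence cell cycle genes, and later joins B-Myb and Foxm1 to activate them. Rbbp4, the most abundant, had a log2 fold change of 0.21 (FDR 0.420). Of 16 genes for the turnover of D cyclins, p27 and p130, 1 was called and was higher: Rbx1, the RING subunit of cullin ligases, at 113 to 123 CPM in controls against 151 and 167 CPM (0.43, FDR 0.0257). Skp2, the F-box protein that targets p27, had a log2 fold change of -0.23 (FDR 0.315). Of 17 tested genes upstream of D cyclins and p27, 1 was called, Smad3, a mediator of TGF-beta signals, at 170 to 173 CPM in controls against 123 and 135 CPM (-0.42, FDR 0.0329).

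Of 19 genes of G2 and mitosis, 2 were called, both lower and both encoding large proteins of the kinetochore. Cenpf had 240 to 300 CPM in controls against 192 and 143 CPM in the EpoR-null samples (log2 fold change -0.72, FDR 0.0119), and Cenpe had 163 to 193 CPM against 131 and 83.2 CPM (-0.74, FDR 0.0311). Their transcripts of 11130 and 7910 bases are in the longest 10% of genes, of which 31.4% were called lower. The other 17 were not called, among them Ccnb1 (-0.12, FDR 0.678) and Cdk1 (0.24, FDR 0.368). With length offsets none of E2f7, Pola1, Rbx1, Smad3, Cenpf and Cenpe passed. The medians of the other lists ran from -0.12 to 0.02, apart from the CDK inhibitors. With 1 EpoR-null sample left out those same medians ran from -0.26 to 0.19.

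**Figure D5:**
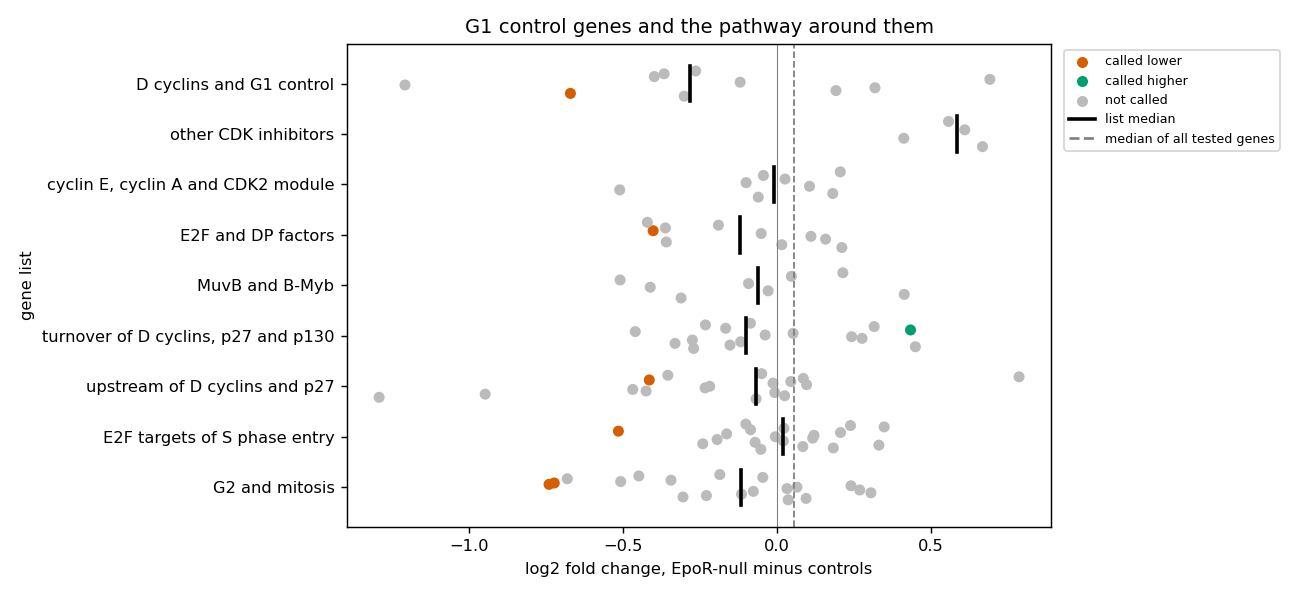
Log2 fold change of EpoR-null against controls (horizontal axis) for every tested gene of the members and of the 8 lists around them (vertical axis), coloured by the call of the exact test, with a bar at each list's median. The members' median is at -0.28 and that of the other CDK inhibitors at 0.58, both moved with single EpoR-null samples (-0.49 to -0.02 and 0.08 to 0.85), the remaining medians lie within -0.12 and 0.02, and the median of all tested genes is 0.06. Median transcript lengths are 4604 bases for the members, 1926.5 bases for the other CDK inhibitors and 3492 bases for all tested genes.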

How the data were processed

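RNA of 5 neural tube samples was sequenced. Per the labels and the study's methods, the authors used Trimmomatic (0.32) for trimming, TopHat2 (2.1.0 in the submitters' processing notes, which name mm9) for alignment and HTSeq (0.6.1) for counting per gene. The deposited values are raw read counts, 1 table per sample. HTSeq sets aside reads that overlap more than 1 gene, 1.85% to 2.31% of the reads counted or set aside here, and reads outside genes, 8.12% to 11.0%. The annotation and strand setting are not given in the sources used here.

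The comparison of EpoR-null with the 3 controls used edgeR 4.0.16 (R 4.3.3), with the TMM scaling and exactTest named in the study's methods. FDR is the Benjamini-Hochberg adjusted p over all tested genes. A gene was tested if 2 or more samples exceeded 1 CPM, a filter set here. Standard errors come from the negative binomial information and 95% intervals from these. The members and lists were chosen with earlier results of these data known. Beyond the members, the 2 called genes of lowest p in each direction of a list were named, or its most abundant gene where none was called, and others as examples chosen after their values were seen. All samples differed from each other beyond sampling noise (lowest chi-square per degree of freedom 13.3).

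Transcript lengths and positions are from GENCODE M21 (GRCm38), matched by symbol or RefSeq synonym for 99.0% of tested genes. Offsets were each sample's loess trend (span 0.5) on log2 length. Promoters are from RefSeq (GRCm38.p6). DESeq2 1.42.0 and the other settings of the closing section are alternatives. The exact test, DESeq2, the quasi-likelihood F-test and the likelihood-ratio test were tested on simulated counts. So were the replicate number as a block in the quasi-likelihood F-test and length offsets in the likelihood-ratio test. The other settings were not.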

Additional observations from a re-analysis of the deposited data

How the results depend on the processing

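The number of genes called over the whole table was 928 and depended on the test and on single samples. It was 0 with the quasi-likelihood F-test (also with length offsets, without and with the replicate block), 1737 with DESeq2, 606 with p under 0.001 also required, 438 with tagwise dispersions of 10 prior degrees of freedom, 141 with length offsets and 169 with length and GC offsets (likelihood-ratio test). Leaving out 1 sample gave 115 to 3778 genes. The settings with 10 prior degrees of freedom and with GC offsets were chosen after seeing the data.

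The number of members called lower was 1. It was 0 with the quasi-likelihood F-test, with p under 0.001 also required and with length or length and GC offsets, 2 with library size only, 3 with DESeq2 (Ccnd2, Ccnd1 and Cdk6), and 0 to 4 with 1 sample left out. The number called higher was 0, and 0 to 1 with 1 sample left out. A fit without 1 EpoR-null sample assumes that the lone one varies like the controls. Ccnd2 was lower in all 19 alternatives, with log2 fold changes from -0.96 to -0.30, and passed in 9. The Ccnd2 share of D cyclin reads differed by -7.47 percentage points, by -8.49 per kilobase, and by -10.1 to -4.88 with 1 sample left out. Cdkn1b and Rbl2 changed sign without EpoR-null replicate 2.

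The replicate numbers are shared by the groups, and the labels do not say what they stand for. With the replicate block the quasi-likelihood F-test gave 0 members called lower and Ccnd2 an FDR of 0.0647 (log2 fold change -0.73). The block gave 695 genes over the whole table. Replicate 1 minus 2 in the wild type and in EpoR-null had an r of 0.427 and a rho of 0.529 across genes, which are not independent, and there were only 2 pairs. Depth limits Cdkn2c most among the members, at 28 to 52 reads.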
